A study of Mus musculus with 11 samples.

Results

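The CC chemokines are small secreted proteins that attract leukocytes, and 10 mouse genes of this family were followed here: Ccl2, Ccl3, Ccl4, Ccl5, Ccl6, Ccl7, Ccl8, Ccl9, Ccl11 and Ccl12. They were found by symbol among the 55414 gene identifiers of each library, and all 10 were present. Bulk poly(A) RNA was sequenced from heart apex tissue of C57BL/6 mice. The study asked how the mode of proton radiotherapy (RT) changes the heart. The NR group held 4 libraries from hearts that were not irradiated. The S-PRT group held 4 libraries from hearts given a single dose of 40 Gy of standard proton RT, focused on the apex, and collected 2 weeks later. The F-PRT group held 3 libraries from hearts given the same dose to the same site and collected at the same time, but with FLASH proton RT, which delivers the dose at an ultra-high rate. All 3 groups carried the C57BL/6 background with no transgene or deletion in the labels. The age and sex of the mice and the dose rates are not given in the sources used here. Whether each library is its own mouse is not stated in the labels, so p-values describe the spread among libraries, which could be technical.

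Chemokines bind receptors coupled to G proteins on leukocytes, and the cells move up the gradient of bound and soluble ligand. The CC branch is named after a pair of neighbouring cysteines near the start of the mature protein. Ccl2, Ccl7, Ccl8 and Ccl12 form the mouse monocyte chemoattractant group, and the first 2 and the last of these act on monocytes through the receptor Ccr2. Ccl11, or eotaxin, attracts eosinophils through Ccr3. Ccl3, Ccl5, Ccl6 and Ccl9 bind Ccr1. In the heart, resident macrophages, stromal cells and incoming monocytes are known sources of these proteins after injury.

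The coding sequence of every one of the 10 genes held exactly 1 pair of neighbouring cysteine codons. The pair lies between codons 32 and 35 in the 5 genes of the monocyte chemoattractant and eotaxin group, whose windows of 42 bases around the pair are shown because 4 of these related genes differed from NR after irradiation and the fifth, Ccl11, was not called. Capitals mark the cysteine codons, and the sequences run 5′ to 3′ on the coding strand of GENCODE M21 transcripts.
Ccl2: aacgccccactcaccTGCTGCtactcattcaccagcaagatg
Ccl7: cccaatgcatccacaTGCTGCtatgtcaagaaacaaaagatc
Ccl8: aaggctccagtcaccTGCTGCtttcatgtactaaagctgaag
Ccl12: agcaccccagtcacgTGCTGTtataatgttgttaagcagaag
Ccl11: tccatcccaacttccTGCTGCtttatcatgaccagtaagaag

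Among the 45 pairs of coding sequences the identity ran from 41.3% for Ccl2 and Ccl5 to 68.4% for Ccl3 and Ccl4. Gaps in the alignment counted as differences. Ccl7 and Ccl11 were 66.3% identical, and Ccl8 and Ccl12 65.4%. Ccl6 and Ccl9 shared 65.1%. Despite this likeness, the deposited expected counts of all 10 genes were whole numbers in all 11 libraries, to within 1e-09 counts. No read divided between a CC chemokine and another gene is visible in them, although reads that matched several genes are not excluded. In the RefSeq gene order on chromosome 11 the genes follow each other as Ccl2, Ccl7, Ccl11, Ccl12, Ccl8, Ccl5, Ccl9, Ccl6, Ccl3 and Ccl4. Ccl11, which was called in neither irradiated group, therefore lies between Ccl7 and Ccl12, which both rose in F-PRT.

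Promoter sequence from RefSeq (GRCm38.p6) was matched for 5 of the 10 genes, namely Ccl3, Ccl6, Ccl8, Ccl9 and Ccl12. The 150 bases before the start are printed for Ccl12 and Ccl8, the genes with the largest fold changes, and for Ccl9, which was nearly constant among NR libraries. Capitals mark TATAAA, the core of the TATA box, and in Ccl9 also an AP-1 site and an NF-kB site. They stand for chr11:82101695-82101844 on the plus strand for Ccl12, chr11:82115035-82115184 on the plus strand for Ccl8 and chr11:83578637-83578786 on the minus strand for Ccl9, each written 5′ to 3′ on the strand of the gene.
Ccl12: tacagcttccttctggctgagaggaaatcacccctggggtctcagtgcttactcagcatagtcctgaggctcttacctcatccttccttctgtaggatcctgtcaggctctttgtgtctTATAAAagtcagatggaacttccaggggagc
Ccl8: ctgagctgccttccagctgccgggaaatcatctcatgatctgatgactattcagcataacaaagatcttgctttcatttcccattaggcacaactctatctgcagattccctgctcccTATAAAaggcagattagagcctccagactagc
Ccl9: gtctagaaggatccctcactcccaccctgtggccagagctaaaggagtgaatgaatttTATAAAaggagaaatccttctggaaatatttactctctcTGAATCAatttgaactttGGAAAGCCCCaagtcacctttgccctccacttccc

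TATAAA on the strand of the gene stood 31 to 26 bases before the start of Ccl12 and 32 to 27 bases before that of Ccl8. In Ccl9 it lay farther away, 92 to 87 bases before the start. The motif was chosen after the sequences had been seen, and 3 of the 5 matched genes held it, against 7.59% of 32851 promoter windows of 250 bases. An NF-kB site was found on either strand in 7.25% of all windows, and among the 5 genes only in Ccl9, 35 to 26 bases before the start on the minus strand. The AP-1 site TGANTCA was in 6.75% of all windows and, of the 5 genes, only in Ccl9. The interferon response element (2.98% of all windows) and the STAT site TTCNNNGAA (7.02%) were in none of the 5 windows. These matches describe letters in a window and not the binding of a factor.

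Libraries held 20758170 to 40136578 expected counts, and mitochondrial transcripts took 24.2% to 43.8% of them. After scaling, 14556 genes passed the filter on low counts and were tested with edgeR's quasi-likelihood test over all 11 libraries. Cardiomyocyte markers summed to 19310 to 39280 TPM (transcript abundance corrected for length and library size), as the tissue label calls for. Replicates 3 and 4 of NR and S-PRT deviated from their group means in the same direction, and replicates 1 and 2 in the other. Transcript length moved with the groups: Spearman's rho of centred log2 CPM (counts scaled to library size) with length was 0.338 to 0.418 among NR, -0.257 to 0.267 among S-PRT and -0.556 to -0.162 among F-PRT libraries. The CC chemokine transcripts are short, at 511 to 1701 bases, and the trend with length fitted over all genes was higher at these lengths in irradiated than in NR libraries, so values without it are given below.

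In the unirradiated apex Ccl6 was the most abundant CC chemokine RNA, with a mean of 7.95 TPM. Ccl9 followed at 3.29 TPM and Ccl11 at 2.58 TPM, while Ccl2 (1.60 TPM), Ccl7 (1.56 TPM) and Ccl5 (1.19 TPM) were lower. Ccl12 reached 0.96 TPM and Ccl8 0.59 TPM, and Ccl3 and Ccl4 lay at 0.125 and 0.085 TPM. The ranges of Ccl2 (0.94 to 2.04 TPM) and Ccl7 (0.91 to 2.44 TPM) overlapped, as did those of Ccl9 and Ccl11, so the order of these neighbours is within the spread between libraries. Only Ccl6 (5.34 to 11.04 TPM) stood above every other member in all 4 NR libraries.

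Ccl2 (ENSMUSG00000035385.6), the prototype monocyte chemoattractant, was measured at 0.724, 1.196, 0.978 and 1.021 CPM in NR replicates 1 to 4. In S-PRT it reached 2.87, 1.84, 6.74 and 4.29 CPM in replicates 1 to 4, and in F-PRT 3.57, 1.78 and 5.38 CPM in replicates 2 to 4. All 7 irradiated libraries lay above all 4 NR libraries, with S-PRT 2 and F-PRT 3 the lowest of them. Ccl2 rose by 2.02 ± 0.40 (SE) on the log2 scale in S-PRT against NR (edgeR adjusted p = 0.034) and by 1.89 ± 0.42 in F-PRT against NR (edgeR adjusted p = 0.014). In bulk RNA, more cells of a type and more RNA per cell cannot be told apart, here and for every gene below.

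Ccl7 (ENSMUSG00000035373.3), a second ligand of Ccr2, tracked Ccl2. Its values were 0.684, 0.710, 1.037 and 1.199 CPM in NR, 2.40, 1.45, 5.08 and 3.46 CPM in S-PRT and 3.34, 1.33 and 4.92 CPM in F-PRT. The irradiated libraries again lay above every NR library, the lowest by a small margin. Ccl7 rose in F-PRT by 1.82 ± 0.44 on the log2 scale (edgeR adjusted p = 0.018). The S-PRT difference was 1.76 ± 0.42 with an edgeR adjusted p of 0.061, which missed the threshold of 0.05. NR and S-PRT libraries of the same number deviated together, as did some of different numbers. With those numbers as pairs in a fit of the 8 NR and S-PRT libraries the difference was 1.71 ± 0.23 (edgeR adjusted p = 0.0026). In that fit 6.57% of all genes rose, against 0.872% in the fit of 11 libraries. The pairs were taken up from these same data, so this value is no independent support for a rise. That fit also leaves out F-PRT, so the pairs are not its only change.

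Ccl8 (ENSMUSG00000009185.3) showed the largest fitted fold change of the family. It was measured at 0.28, 0.075, 0.21 and 0.16 CPM in NR, at 0.77, 0.53, 2.80 and 2.63 CPM in S-PRT and at 2.32, 1.28 and 1.06 CPM in F-PRT. The NR values rest on 2 to 7 counts per library. S-PRT replicates 3 and 4 stood well above S-PRT replicates 1 and 2, and no irradiated library overlapped NR. The increase was 3.26 ± 0.59 on the log2 scale in S-PRT (edgeR adjusted p = 0.027) and 3.10 ± 0.62 in F-PRT (edgeR adjusted p = 0.010). Because no NR library reached the filter level of 0.356 CPM, Ccl8 entered the test only through its irradiated libraries, and its call is no independent support for a change of the family.

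Ccl12 (ENSMUSG00000035352.4), the mouse monocyte chemoattractant that shares Ccr2 with Ccl2, was measured at 0.080, 0.075, 0.50 and 0.42 CPM in NR. It lay at 1.16, 0.97, 2.68 and 1.97 CPM in S-PRT and at 2.28, 1.001 and 2.39 CPM in F-PRT. NR replicates 1 and 2 held only 2 counts each, while NR 3 and 4 held 17 and 19, and all irradiated libraries stood above both pairs. Ccl12 rose by 2.55 ± 0.52 on the log2 scale in S-PRT (edgeR adjusted p = 0.037) and by 2.71 ± 0.55 in F-PRT (edgeR adjusted p = 0.010). With 2 NR libraries at the filter level, where 3 libraries were needed, Ccl12 too would not have been tested on its NR libraries alone.

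Ccl11 (ENSMUSG00000020676.3), the eotaxin gene of the same chromosomal group, did not share this rise. It was measured at 3.10, 1.76, 2.28 and 2.26 CPM in NR, 1.84, 1.99, 1.57 and 0.59 CPM in S-PRT and 0.84, 0.83 and 2.53 CPM in F-PRT. The groups overlapped, with S-PRT 3 and 4 and F-PRT 2 and 3 below the NR range and the other 3 irradiated libraries within it. The log2 difference was -0.68 ± 0.40 in S-PRT (edgeR adjusted p = 0.40; 95% interval -1.56 to 0.19) and -0.69 ± 0.44 in F-PRT (edgeR adjusted p = 0.28; -1.64 to 0.26). Both upper bounds lie below the fitted increases of Ccl2, Ccl7, Ccl8 and Ccl12, although a difference between genes was not tested.

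**Figure D1:**
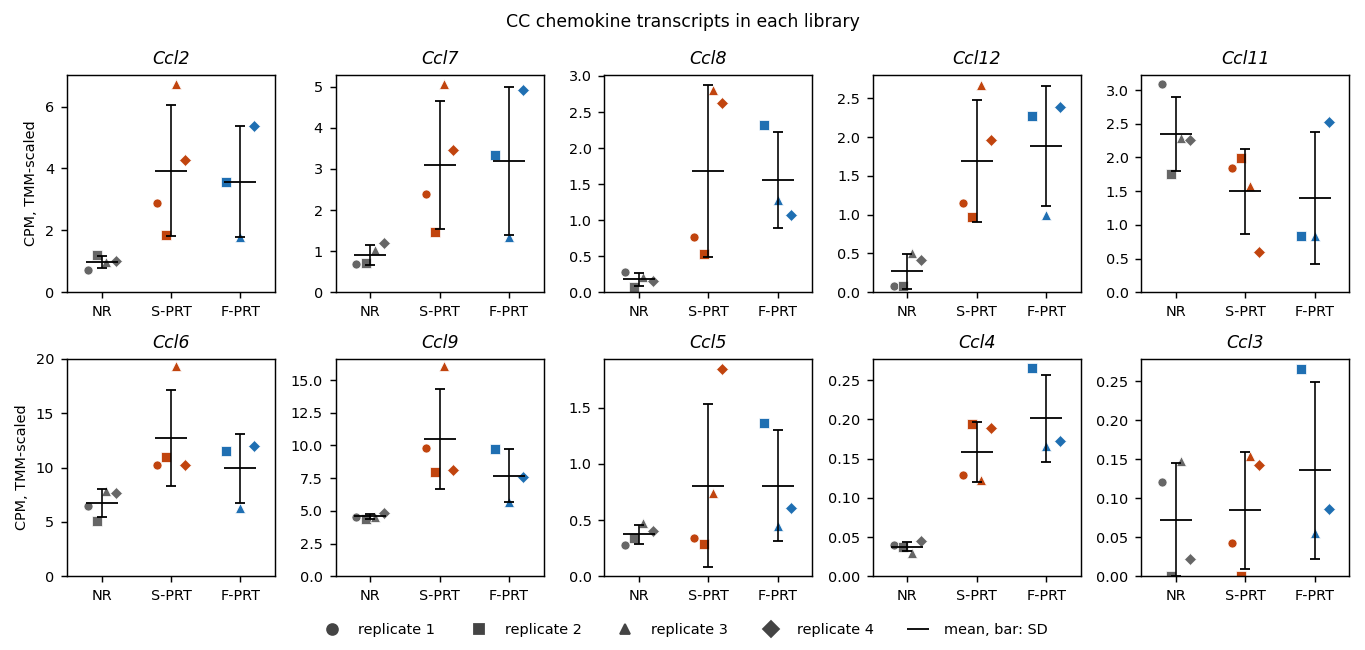
TMM-scaled CPM of the 10 CC chemokine genes in each library, by group, with the replicate number as marker shape, a line at the mean and a bar for the SD (n = 4, 4 and 3). Ccl2, Ccl7, Ccl8 and Ccl12 lie higher in all 7 irradiated libraries than in any NR library, Ccl11 overlaps between groups, and the vertical scales differ between genes.

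Ccl6 (ENSMUSG00000018927.4), a ligand of Ccr1 made by macrophages and other myeloid cells, was measured at 6.43, 5.05, 7.85 and 7.64 CPM in NR. S-PRT libraries held 10.24, 10.96, 19.32 and 10.26 CPM and F-PRT libraries 11.5, 6.28 and 12 CPM. S-PRT lay wholly above NR, with replicate 3 far above the other 3, whereas F-PRT 3 fell inside the NR range. The log2 difference was 0.91 ± 0.25 in S-PRT (edgeR adjusted p = 0.092) and 0.57 ± 0.27 in F-PRT (edgeR adjusted p = 0.14). Neither passed the threshold. In the paired fit of S-PRT and NR Ccl6 was higher by 0.87 ± 0.14 (edgeR adjusted p = 0.0072), where 6.57% of all genes rose. The pairs were taken up from these same data, so this value too is no independent support. That fit also leaves out F-PRT, so the pairs are not its only change.

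Ccl9 (ENSMUSG00000019122.9), another Ccr1 ligand and the neighbour of Ccl6, was nearly constant in NR at 4.54, 4.41, 4.53 and 4.84 CPM. It reached 9.81, 7.95, 16.1 and 8.13 CPM in S-PRT and 9.76, 5.67 and 7.63 CPM in F-PRT. Every irradiated library exceeded every NR library, S-PRT 3 being the highest and F-PRT 3 the lowest. Ccl9 rose by 1.196 ± 0.22 on the log2 scale in S-PRT (edgeR adjusted p = 0.028) and by 0.75 ± 0.24 in F-PRT (edgeR adjusted p = 0.044). The F-PRT call was lost in 7 of the 11 fits that left out 1 library. Over all 21 alternatives, those fits included, it was made in 7.

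Ccl5 (ENSMUSG00000035042.3), a product of T cells, natural killer cells and activated macrophages that binds Ccr1, varied widely within the irradiated groups. It was measured at 0.28, 0.34, 0.47 and 0.40 CPM in NR, 0.34, 0.29, 0.74 and 1.85 CPM in S-PRT and 1.37, 0.44 and 0.60 CPM in F-PRT. S-PRT 1 and 2 were within the NR range, while S-PRT 4 and F-PRT 2 were well above it. The log2 difference of 1.17 ± 0.55 in S-PRT had an edgeR adjusted p of 0.28, and that of 1.10 ± 0.60 in F-PRT an edgeR adjusted p of 0.20. Without S-PRT 4 the S-PRT difference was 0.32 ± 0.47 (edgeR adjusted p = 0.76).

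Ccl3 and Ccl4, which encode macrophage inflammatory proteins made by activated macrophages and lymphocytes, were close to the limit of detection, with 32 and 40 counts over all 11 libraries, and did not pass the filter. Ccl4 was counted 1, 1, 1 and 2 times in NR, 3, 4, 4 and 8 times in S-PRT and 7, 3 and 6 times in F-PRT. Scaled to library size, these are 0.030 to 0.044 CPM for NR, 0.123 to 0.194 CPM for S-PRT and 0.167 to 0.266 CPM for F-PRT, so the irradiated libraries lay above NR. A two-sided exact permutation test of CPM gave p = 0.029 for S-PRT against NR and p = 0.057 for F-PRT against NR, each the smallest that the design allows. Adjusted over the 6 tests made on Ccl3 and Ccl4, both became 0.17. Ccl3 overlapped between all groups, at 0 to 0.148 CPM for NR, 0 to 0.154 CPM for S-PRT and 0.056 to 0.266 CPM in F-PRT, with exact permutation p of 0.71 and 0.51 against NR.

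Of the 10 CC chemokines 8 were tested, and 4 of them rose and none fell in S-PRT against NR at an edgeR adjusted p under 0.05: Ccl2, Ccl8, Ccl9 and Ccl12. Of all 14556 genes tested, 0.872% rose and 0.419% fell in this comparison. In F-PRT against NR 5 of the 8 rose, Ccl7 in addition to those 4, and none fell, where 10.8% of all genes rose and 8.67% fell. With both irradiated groups weighted equally against NR, 6 of the 8 rose and none fell, where 8.15% of all genes rose and 6.4% fell, and the sixth was Ccl6 at 0.74 ± 0.22 on the log2 scale (edgeR adjusted p = 0.045). That call of Ccl6 was made in only 6 of 19 alternatives and was lost in 8 of the 11 fits that left out 1 library. The median log2 difference of the 8 genes was 1.48 in S-PRT and 1.46 in F-PRT, against 0.01 and 0.03 for all genes tested. These counts and medians leave out Ccl3 and Ccl4, and they include Ccl5, Ccl8 and Ccl12, which passed the filter only with irradiated libraries counted. Ccl8 reached the filter level in 0 of the 4 NR libraries, and Ccl5 and Ccl12 in 2 of the 4, where 3 libraries were needed. The 3 comparisons share the NR libraries, so their counts are not independent of each other.

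Genes whose groups do not overlap in CPM were counted too, from the same values, so this is no independent support for the calls. In S-PRT against NR 6 of the 8 tested genes, and Ccl4, had all S-PRT libraries above all NR libraries, against 7.34% of all tested genes. In F-PRT against NR this held for 5 of the 8, and for Ccl4, against 17.5% of all tested genes. Both counts include Ccl8 and Ccl12, which passed the filter only with irradiated libraries counted. Ccl4 did not pass the filter and lies outside the genes that these shares cover.

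The S-PRT calls depended on single libraries. Without any 1 of the 4 NR libraries, or without S-PRT 3, the count of called CC chemokines went from 4 to 0, and without S-PRT 4 to 1, Ccl9. Over all genes, the number that rose went from 127 to between 20 and 23 in the former cases, and to 77 without S-PRT 4. The count of CC chemokines was also 0 when the replicate number entered the fit of all 11 libraries as a block, where 0.24% of all genes rose. In the fit of the 8 NR and S-PRT libraries as pairs, 6 of the 8 genes rose (Ccl2, Ccl6, Ccl7, Ccl8, Ccl9 and Ccl12), against 6.57% of all genes. Without the pairs these 8 libraries also gave 6 of the 8 genes, where 350 of all 14556 genes tested rose. Among replicates 1 and 2 alone, 5 genes rose, against 5.72% of all genes, and the difference for Ccl8 was 1.87 ± 0.67 on the log2 scale (edgeR adjusted p = 0.10). Among replicates 3 and 4 alone, 5 rose, against 6.11%, and Ccl6 differed by 0.92 ± 0.25 (edgeR adjusted p = 0.059). Ccl2 differed by 1.29 ± 0.36 in the first pair of replicates and by 2.44 ± 0.26 in the second, and Ccl12 by 3.69 ± 0.62 and 2.32 ± 0.31. The pairs and the split into replicates 1 and 2 and replicates 3 and 4 come from the titles and from the data, and the labels link no number to a mouse or a date. The split was added after the data had been seen. Fits with the pairs or the split use the same libraries, so their counts are no independent support for the calls.

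For F-PRT against NR, leaving out F-PRT 4 left 2 called CC chemokines, Ccl8 and Ccl12, where 690 of all 14556 genes tested rose. Leaving out F-PRT 3 gave 6, where 2061 of all genes rose, with Ccl6 added at 0.80 ± 0.25 on the log2 scale (edgeR adjusted p = 0.036). With all 11 libraries 1579 genes rose, so the count over all genes moved in the same direction in both cases. Without any 1 of the 4 NR libraries, without S-PRT 1 or without F-PRT 2, 4 CC chemokines were called. In those fits 846 to 1583 of all genes rose. F-PRT replicate numbers did not pair with those of NR or S-PRT.

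Removing the trend with transcript length made the increases of the tested CC chemokines smaller and the negative difference of Ccl11 larger, at -0.84 in S-PRT and -1.07 in F-PRT. The trend at the size of Ccl2 averaged -0.18 over NR libraries, 0.04 over S-PRT and 0.21 over F-PRT on the log2 scale. At the size of Ccl8 it averaged -0.23, 0.10 and 0.23. With the trend removed, no CC chemokine passed the threshold in S-PRT or F-PRT against NR in the fit of 11 libraries, where 0.22% and 1.92% of all genes rose. Ccl8 then differed by 2.99 ± 0.65 in S-PRT (edgeR adjusted p = 0.071) and by 2.66 ± 0.69 in F-PRT (edgeR adjusted p = 0.055). Ccl2 differed by 1.82 ± 0.39 (edgeR adjusted p = 0.071) and 1.45 ± 0.42 (edgeR adjusted p = 0.073). In the paired fit with the trend removed, a setting added after the data had been seen, 6 of the 8 genes rose in S-PRT, against 4.18% of all genes, with Ccl2 at 1.74 ± 0.30 and Ccl8 at 2.93 ± 0.45. With both irradiated groups against NR and the trend removed, 4 of the 8 rose (Ccl2, Ccl8, Ccl9 and Ccl12), against 1.62% of all genes.

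**Figure D2:**
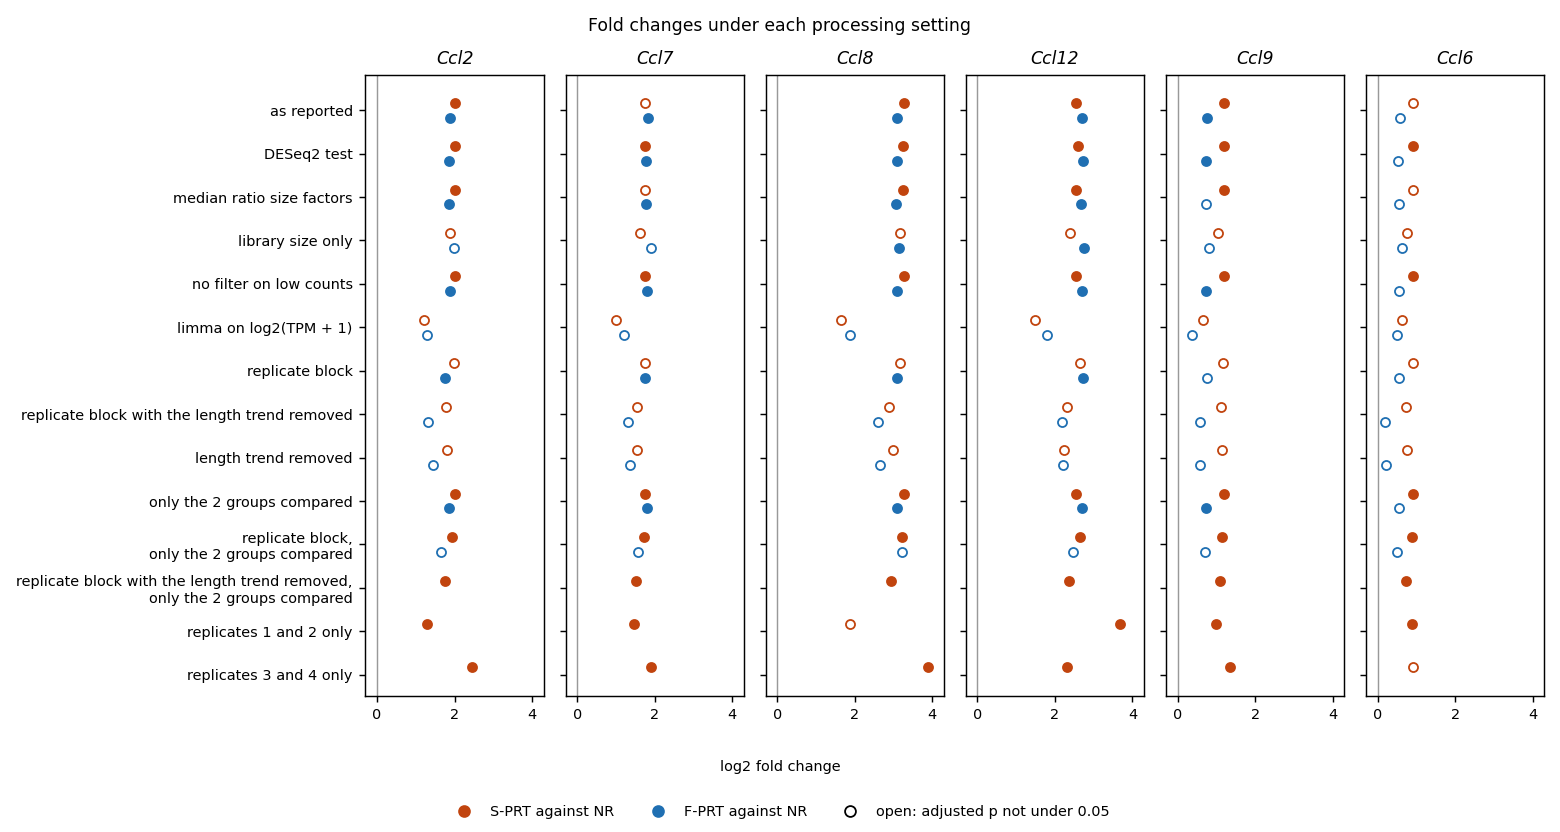
Log2 fold changes (horizontal axes) of 6 CC chemokines in S-PRT and F-PRT against NR under each processing setting (rows), filled where the adjusted p is under 0.05. All points lie to the right of 0, while filled and open points alternate between settings, and rows without an F-PRT point are settings made for S-PRT only.

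FLASH and standard protons gave CC chemokine levels that could not be separated in these libraries. All 10 genes overlapped between F-PRT and S-PRT, where 5.45% of tested genes lay wholly higher and 5.17% wholly lower in F-PRT. None of the 8 tested passed the threshold, and 0% of all 14556 genes did in edgeR. At an unadjusted p under 0.05 there were 2315 genes and none of the 8. DESeq2, run as an alternative, called 168 genes and none of the 8, and gave an adjusted p only for Ccl6 and Ccl9. The log2 difference of F-PRT from S-PRT was -0.13 for Ccl2 (95% interval -0.99 to 0.73), 0.06 for Ccl7 (-0.85 to 0.96) and 0.16 for Ccl12 (-0.88 to 1.2). For Ccl8 it was -0.16 (-1.27 to 0.95) and for Ccl11 -0.01 (-1.005 to 0.990). Ccl9 had the narrowest interval, at -0.44 (-0.96 to 0.07, edgeR adjusted p = 0.37), followed by Ccl6 at -0.34 (-0.92 to 0.23). Differences of up to about these bounds in either direction remain possible at this number of libraries.

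**Figure D3:**
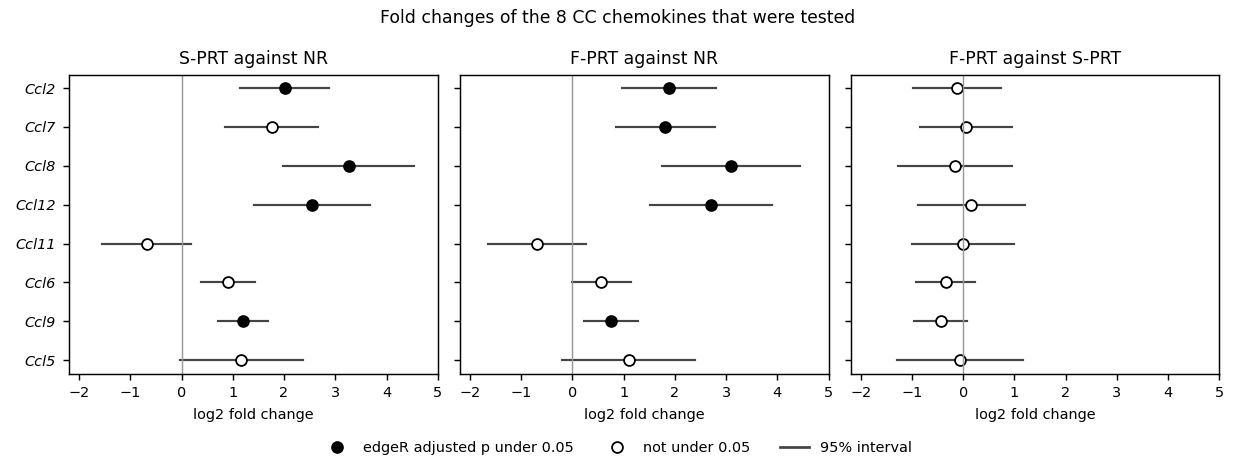
Log2 fold changes with 95% intervals of the 8 tested CC chemokines, with 1 panel each for S-PRT and F-PRT relative to NR and a last panel for F-PRT relative to S-PRT, filled where the edgeR adjusted p is under 0.05. Filled points number 4, 5 and 0 in the 3 panels, and every interval in the last panel includes 0.

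The make-up of CC chemokine RNA also differed between the groups, as a description with no test. Summed over the 10 genes, NR libraries held 14.6 to 26.5 TPM, S-PRT libraries 25.2 to 65.9 TPM and F-PRT libraries 20.2 to 57.6 TPM. Ccl2, Ccl7, Ccl8 and Ccl12 together made up 23.0% ± 3.1 of that sum over the NR libraries (SD, n = 4), against 43.1% ± 9.5 for S-PRT (n = 4) and 50.1% ± 3.1 for F-PRT (n = 3). Every irradiated library, at 31.1% to 52.9%, was above every NR library, at 19.3% to 25.7%. Ccl6 and Ccl9 together took 56.6% ± 2.3 over the NR libraries, against 47.0% ± 9.8 for S-PRT and 39.1% ± 3.2 for F-PRT. The share of Ccl11 was 13.4% ± 3.7 over the NR libraries, against 4.00% ± 2.6 for S-PRT and 3.603% ± 1.8 for F-PRT. Ccl6 still led each group, at 13.01 TPM in S-PRT and 12.17 TPM in F-PRT. After it the order was Ccl9, Ccl2, Ccl8, Ccl12 and Ccl7 in S-PRT, between 5.89 and 4.48 TPM, and Ccl2, Ccl12, Ccl7, Ccl8 and Ccl9 in F-PRT, between 5.97 and 4.64 TPM, with wide overlap between neighbours. Shares of a sum are bound to each other, so a larger share of 1 gene lowers the others. The trend with transcript length was not removed from these shares. At the size of Ccl8 it averaged -0.228 over NR, 0.100 over S-PRT and 0.232 over F-PRT on the log2 scale. At the size of Ccl9 it averaged -0.058, -0.004 and 0.107. Its part in the shares was not tested.

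**Figure D4:**
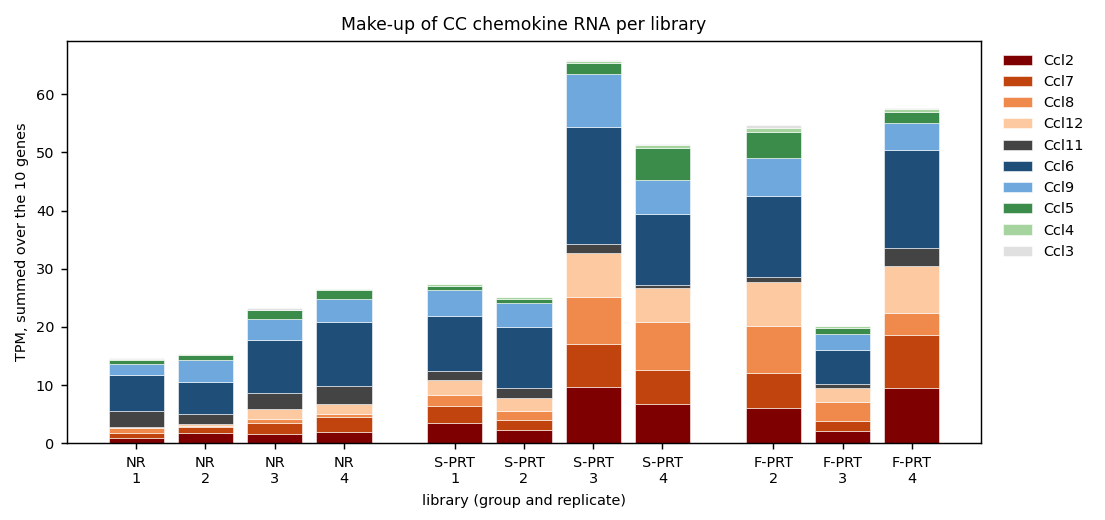
TPM of the 10 CC chemokine genes stacked per library, with groups and replicate numbers along the horizontal axis. The red and orange segments (Ccl2, Ccl7, Ccl8, Ccl12) fill 19.3% to 25.7% of the NR columns and 31.1% to 52.9% of the irradiated columns, and columns are tall in S-PRT 3 and 4 and F-PRT 2 and 4.

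Ccl2 and Ccl7 kept a nearly fixed ratio while their levels changed. The ratio of their TPM lay between 0.836 and 1.63 in the 11 libraries, a span of 1.95-fold, although Ccl2 itself spanned 10.3-fold (0.94 to 9.66 TPM) and Ccl7 9.90-fold. On the same TPM scale Ccl8 spanned 36.2-fold and Ccl12 40.5-fold, both from NR values that rest on very few counts. Ccl6 spanned 3.75-fold. Ccl9 spanned 4.98-fold, from a low TPM in NR 1 that its CPM did not share, so the order of Ccl6 and Ccl9 depends on the unit. The ratio of Ccl2 to Ccl11 moved the most of the 8 ratios looked at, from 0.341 to 0.978 in NR to 1.34 to 10.4 in S-PRT and 3.03 to 6.15 in F-PRT. Over the 11 libraries Pearson's r of log2 CPM was 0.97 between Ccl2 and Ccl7 and 0.93 after removing group means, as a description of libraries that share depth and dissection. It was 0.92 between Ccl6 and Ccl9 and 0.83 after removing group means. Ccl11 and Ccl5 had the lowest r of any pair, at -0.75.

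Among 10613 other genes whose mean log2 CPM was 1 or more, those most like each CC chemokine over the 11 libraries were picked by Pearson's r of log2 CPM. For Ccl8 the closest was Ccr2 (r = 0.97), the receptor of its relatives, ahead of Gdf15, a stress-induced cytokine (0.96), and Lxn (0.96). For Ccl2 they were Metrnl (0.97), Prelid1 (0.97) and Ywhah (0.96), for Ccl7 Cfl1 (0.98), Gpsm3 (0.97) and Gngt2 (0.97), and for Ccl12 Gpx1 (0.97), Tyrobp (0.96) and Cdkn1a (0.96). Tyrobp encodes an adaptor of myeloid receptors and Cdkn1a the cell cycle inhibitor p21. Ccl6 was closest to Morf4l2 (0.98), Ifitm3 (0.97) and Cfp (0.96), and Ccl9 to Ifi27l2a (0.97), Arpc3 (0.96) and Ctsb (0.95). For Ccl5 the leading genes were Uba7 (0.95), Trim30d (0.94) and Ulbp1 (0.94), and for Ccl11 Ucp3, Agk and Epdr1 (0.90 each). The r values describe these 11 libraries, which differ by group and by length drift, and carry no test.

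Of the 10 CC receptor genes, 4 passed the filter. Among these only Ccr2 rose, in S-PRT, where 0.872% of all genes did, and in F-PRT, where 10.8% did. Ccr2, the receptor that brings monocytes out of the bone marrow and into tissue, was measured at 0.47, 0.37, 0.64 and 0.71 TPM in NR, 1.34, 1.49, 3.36 and 3.6 TPM in S-PRT and 2.95, 1.65 and 2.71 TPM in F-PRT. No irradiated library overlapped NR. Ccr2 rose by 2.33 ± 0.25 on the log2 scale in S-PRT (edgeR adjusted p = 0.0032) and by 2.18 ± 0.27 in F-PRT (edgeR adjusted p = 0.0024). Ccr1 differed by 0.62 ± 0.36 (edgeR adjusted p = 0.39) and 0.25 ± 0.40 (edgeR adjusted p = 0.69) in the same comparisons. Ccr3, the receptor of Ccl11, was below the filter, at 0 to 0.06 TPM. Of the 4 tested atypical receptors, which bind chemokines without signalling through G proteins, none passed the threshold, with Ackr4 the nearest at -0.67 ± 0.25 in F-PRT (edgeR adjusted p = 0.072).

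Of the 12 other CC ligands in the files 7 were tested, and none was called in S-PRT against NR. In F-PRT against NR, where 10.8% of all genes rose, 1 of the 7 was called (edgeR adjusted p = 0.023). This was Ccl22, a ligand of Ccr4 made by dendritic cells and macrophages. It was counted 0, 0, 1 and 0 times in NR, 2, 0, 12 and 20 times in S-PRT and 7, 3 and 11 times in F-PRT, so no fold change is given. With 0 or 1 count in NR it entered the test only through its irradiated libraries, and its call is no independent support for a change. In S-PRT its edgeR adjusted p was 0.070. Ccl20 and Ccl26 were at 0 in all libraries. The other CC ligands had a median log2 difference of 0.13 in S-PRT and 0.66 in F-PRT, against 1.48 and 1.46 for the 8 genes followed here, and both sets of medians hold genes that NR libraries alone would not have brought into the test. Their summed TPM was highest in F-PRT 4 (75.4 TPM against 19.3 to 35.7 in the other 10 libraries), where the lymphoid chemokine Ccl21a alone held 39.3 TPM.

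Of 18 tested regulators and inducers of the NF-kB, AP-1 and interferon pathways, 2 rose in S-PRT, where 0.872% of all genes did, namely the interferon regulator Irf7 (3.07 ± 0.58 on the log2 scale, edgeR adjusted p = 0.031) and the cytokine Il1b (2.15 ± 0.35, edgeR adjusted p = 0.017). In F-PRT, where 10.8% of all genes rose, 4 of the 18 did: Irf7 (2.87 ± 0.60), the NF-kB subunit Relb (0.66 ± 0.14), the NF-kB cofactor Nfkbiz (0.97 ± 0.24) and the cytokine Tnf (1.82 ± 0.50), with edgeR adjusted p of 0.011 to 0.027. None fell in either comparison. The list medians were 0.52 and 0.62, and 14 and 16 of the 18 differences were above 0. Il1b differed by -1.40 ± 0.37 in F-PRT against S-PRT (edgeR adjusted p = 0.18). Of 19 genes that act downstream of chemokine receptors, none passed in S-PRT and 1 rose in F-PRT, the arrestin gene Arrb2 (0.89 ± 0.22, edgeR adjusted p = 0.020), against 0.872% and 10.8% of all genes.

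A minority of the markers of monocytes and macrophages passed the threshold, but most pan-macrophage and recruited markers differed upward. Of the 10 pan-macrophage markers, 10 differences were above 0 in S-PRT and 9 in F-PRT, with medians of 0.88 and 0.62. Of the 9 tested recruited markers it was 9 and 8, with medians of 1.02 and 0.56. Of the 8 resident markers it was 4 in each, with medians of 0.06 and -0.15. The medians of all genes tested were 0.01 and 0.03. The 10 pan-macrophage markers summed to 67.6 to 143 TPM in NR, 98.1 to 250 TPM in S-PRT and 85.7 to 237 TPM in F-PRT, with 1 of 10 higher in S-PRT (Aif1) and 3 of 10 higher in F-PRT (Aif1, C1qa and C1qb), against 0.872% and 10.8% of all genes. The sums of the irradiated groups overlapped that of NR. The 12 monocyte and recruited macrophage markers summed to 5.64 to 14.1 TPM in NR, 12.2 to 29.5 TPM in S-PRT and 10.4 to 28.4 TPM in F-PRT, and 2 of 9 tested rose in each, Ccr2 and Lgals3. These sums overlapped NR too. Among 8 resident macrophage markers Cd163 fell in both comparisons (-1.51 ± 0.20 in S-PRT, edgeR adjusted p = 0.0055, and -1.84 ± 0.22 in F-PRT, edgeR adjusted p = 0.0022). In F-PRT Timd4 fell (-1.74 ± 0.46, edgeR adjusted p = 0.022) and Gas6 rose (0.57 ± 0.13, edgeR adjusted p = 0.013). Of all genes tested, 0.419% fell in S-PRT, while 8.67% fell and 10.8% rose in F-PRT. The sums of the 8 resident markers overlapped, at 55.3 to 103 TPM in NR, 58.1 to 102 TPM in S-PRT and 63.3 to 109 TPM in F-PRT. S-PRT 3 and 4 and F-PRT 2 and 4, the libraries with the most CC chemokine RNA, also had the 4 highest pan-macrophage sums. None of the tested markers of neutrophils (4), T and NK cells (4), eosinophils and mast cells (4) or B cells (5) passed the threshold in S-PRT or F-PRT against NR. With both irradiated groups together against NR, 1 of these markers rose, the eosinophil gene Ear2 (1.52 ± 0.40, edgeR adjusted p = 0.030), which had an edgeR adjusted p of 0.054 in S-PRT. Of 8 fibroblast markers 2 fell in F-PRT (Pdgfra and Gsn), and of 8 endothelial markers 2 fell in both comparisons (Tek and Flt1). Of 8 cardiomyocyte markers 1 fell in F-PRT (Ryr2), where 8.67% of all genes did. The trend with transcript length was not removed for these calls. No marker list had all its genes at 0. The part of cell numbers in the CC chemokine differences was not tested.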

How the data were processed

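Directional poly(A) libraries were made from RNA of high integrity, per the labels' protocols. The submitters' processing notes name FastQC and cutadapt, the aligner STAR, RSEM and edgeR without versions, and name both GRCm39 and mm10, so no gene coordinates from the files are given. The deposited expected counts per gene are RSEM's estimates, which can divide a read between genes, per the file headers. The deposited TPM are scaled by effective length to a common sum, per the file headers, and keep no depth. No source used here says whether counting used the strand.

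Of 55414 identifiers 52081 matched a symbol, and the 3333 others held 0.072% to 0.355% of counts. Expected counts were rounded, filtered with filterByExpr (minimum count 10, minimum total 15), scaled with TMM and fitted over all 11 libraries with edgeR 4.0.16 (8 residual degrees of freedom) in R 4.3.3, with Benjamini-Hochberg adjustment over 14556 genes. An adjusted p under 0.05 was called. CPM are TMM-scaled and log2 CPM used a prior count of 2. Any p-value called exact is from a permutation test over libraries.

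The members, the gene lists and the rules for naming genes were chosen with earlier results of these data known. All 10 genes were named in every comparison, and of each other list at most 4 called genes, or, failing any, at most 2 by smallest p. Ccr1, Ccr2 and Ccr3 were always named, as were the 3 genes most like each tested member. A gene that this rule selects is not reported here. Sequence came from RefSeq (GRCm38.p6) and GENCODE M21. Identity was computed on coding bases where protein identity had been planned.

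Same-numbered NR and S-PRT libraries had correlated deviations from their group means (0.184 to 0.363 over 11107 genes), so the titles' numbers were taken to pair them. Differently numbered pairs ranged from -0.447 to 0.443, so these correlations do not single out the numbers. For F-PRT these correlations were -0.446 to 0.233 with NR and -0.389 to -0.156 with S-PRT, so its numbers were not. On simulated data with 200 of 14556 genes changed, 34% of genes changed 1.5-fold, 78% changed 2-fold and 94% changed 4-fold were called in S-PRT against NR. The shares were 32%, 68% and 88% in the F-PRT comparison with NR. Of the simulated calls 4.40% and 6.54% were false in these comparisons. The simulated counts held no trend with length and no likeness between replicate numbers, so these shares need not hold for the real libraries. Pairs of libraries of a group differed by 5.92 to 224 in chi-square per degree of freedom, so none was a repeat deposit. Alternatives were DESeq2 1.42.0, its median ratio size factors, library size alone, no filter, limma 3.58.1 on log2(TPM + 1), the replicate block, removal of the length trend (lowess span 0.3), the 2 groups alone and leaving out each library.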

Additional observations from a re-analysis of the deposited data

Results flagged for a closer look

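Ccl6 stood at 19.32 CPM in S-PRT 3, while the nearest of the other S-PRT libraries was S-PRT 2 at 10.96 CPM. The gap was 0.921 of the range of the group, above the 95% critical value of Dixon's test for 4 libraries. With 20 groups of 4 looked at, chance alone marks about 1 in 20. S-PRT 3 also held the highest Ccl2, Ccl7, Ccl8, Ccl9 and Ccl12 CPM of the 11 libraries and the highest pan-macrophage marker sum (250 TPM). The cause was not tested.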

How the results depend on the processing

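No log2 difference of a CC chemokine from NR changed sign under any alternative, but many calls depended on the setting, and the cause was not tested. In S-PRT against NR, 4 of the 8 were called and 0 under library size alone, limma on log2(TPM + 1), the replicate block over 11 libraries, removal of the length trend, and both together. DESeq2 and the 2 groups alone called 6 of the 8, and the fit without the filter called 6 of 10. The count over all genes, 188, became 697 with DESeq2, 605 without the filter, 583 with the 2 groups alone, 14 with library size alone, 2 with limma, 60 with the replicate block, 44 without the length trend and 12 with both. With the replicate block on the 8 paired libraries it was 1426. In settings added after seeing the data it was 881 with the block and the trend removed on those 8, 1542 in replicates 1 and 2 and 1316 in replicates 3 and 4. In F-PRT against NR, 5 of the 8 were called, 2 with library size alone and 0 with limma, without the length trend, with the block and the trend removed, and with the replicate block on the 2 groups. The count over all genes, 2841, became 134 with library size alone, 71 with limma, 1501 with the block, 497 without the trend, 44 with both and 29 with the block on the 2 groups. In F-PRT against S-PRT no CC chemokine was called under any alternative, and the count over all genes, 0, became 168 with DESeq2, 3 with median ratio size factors, 71 without the filter and 9 with limma. With all irradiated libraries against NR, 6 of the 8 were called, 3 with library size alone and 0 with limma or with the block and the trend removed. The count over all genes, 2118, became 213, 33 and 53 in these, 910 with the block and 419 without the trend. Leaving out 1 library gave 0 to 6 CC chemokines in S-PRT (26 to 447 genes), 2 to 6 in F-PRT (1391 to 3801 genes), 0 in F-PRT against S-PRT (0 to 104 genes, the highest without F-PRT 3) and 4 to 6 with all irradiated (516 to 3270 genes). Without F-PRT 4, Ccl11 fell by 1.08 with all irradiated against NR (edgeR adjusted p = 0.040). Library size alone shifted the median of all genes by -0.136 in S-PRT against NR and 0.188 in F-PRT against S-PRT, and limma by -0.132 and 0.126. The split of higher and lower calls went from 127 and 61 to 11 and 3 with library size alone in S-PRT, to 1 and 1 with limma, and from 1186 and 932 to 78 and 135 with library size alone for all irradiated. Counts under 10 in at least 2 NR libraries limit Ccl3, Ccl4, Ccl5, Ccl8 and Ccl12.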

Other observations

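Ccl5 was highest in S-PRT 4 (1.85 CPM), the library in which the 12 T and NK cell markers had their highest sum, 7.86 TPM against 1.25 to 4.68 TPM in the other 10 libraries. Elsewhere the order differed. NR 3 and NR 4 held sums of 4.68 and 4.3 TPM and F-PRT 2 one of 3.61 TPM, while Ccl5 was higher in F-PRT 2. A link was not tested. Ccl9 had nearly the same CPM in NR 1 and NR 2 (4.54 and 4.41) but different deposited TPM (1.83 and 3.83), a unit that divides by a length averaged over isoforms. Between same-numbered NR and S-PRT libraries, Ccl2 was 3.97, 1.54, 6.89 and 4.20 times higher in S-PRT for numbers 1 to 4, and Ccl7 3.51, 2.05, 4.90 and 2.89 times. Ccl7 was 4.55 and 4.15 times as abundant as Ccl12 in NR 1 and 2 on the TPM scale, and 0.725 to 1.53 times in the other 9 libraries.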
